A study of Homo sapiens with 15 samples.

Results

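The human metallothionein genes were followed across an RNA-seq experiment in U87MG, an established glioblastoma cell line. The genes were chosen by symbol. They comprised 7 metallothioneins (MT2A, MT1X, MT1E, MT1F, MT1G, MT1M and MT1L) and 2 zinc-related genes. The latter were the exporter SLC30A1 and the zinc-sensing transcription factor MTF1, which makes 9 of the 25737 genes in the table. Cells were collected 24 h after lentiviral transduction. The virus carried GFP in the control group and ID1, ID2, ID3 or ID4 in the others, and each of the 5 groups had 3 libraries. All groups therefore carried a lentivirus. ID1 to ID4 are helix-loop-helix proteins that lack a DNA-binding region and bind E proteins, which keeps those transcription factors from E-box sequences. The promoter of the transgenes, and whether the replicates came from separate cultures, are not given in the sources used here, so p-values measure the spread between these libraries.

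Metallothioneins are small, cysteine-rich proteins that bind zinc and copper, and also cadmium. When free zinc rises, the transcription factor MTF1 binds metal response elements in the promoters of most metallothionein genes and of SLC30A1, which exports zinc from the cytosol. Their transcripts are also raised by glucocorticoids and stress, and MT2A is usually the most abundant isoform in human cells. MT1L is annotated as a transcribed pseudogene.

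Total counts were 11089044 to 15148979 per library, so that a floor of 3 counts equalled 0.198 to 0.271 CPM (the count scaled to the library total), which covers counting error only. Counts of the gene named by the label were raised in the libraries labelled ID3 and ID4 and not in those labelled ID1 and ID2. The ID1 gene averaged 344 CPM in the GFP libraries and 250 CPM in the libraries labelled ID1. The ID2 gene averaged 85.7 CPM in the GFP libraries and 44.9 CPM in those labelled ID2. The ID3 gene rose from 221 to 313 CPM in its libraries, and the ID4 gene from 0 to 2 counts to 2479 to 3110 counts. The rise of the ID3 gene was not particular to its label. It was at 268 to 319 CPM in the libraries labelled ID2, which overlapped the 301 to 323 CPM of those labelled ID3. Groups are named by their labels here. The U87MG marker genes VIM, CD44, FN1, TNC and NES were above the floor in every library. Their summed level was 10101 to 10913 CPM in GFP and 18577 to 19662 CPM in ID2, and its part in the results was not tested. FN1 carried most of this difference (6088 and 13990 CPM on average), while CD44 was at 595 and 510 CPM and NES at 24.2 and 24.3 CPM. The 4 oligodendrocyte markers summed to at most 0.485 CPM, the 3 endothelial markers to at most 0.767 CPM and the 4 microglia and blood markers to at most 6.36 CPM. The 4 astrocyte markers summed to 18.03 to 19.3 CPM in GFP, 28.2 to 30.03 CPM in ID2 and at most 33.3 CPM in any library, with GFAP and AQP4 at or near 0 and SLC1A3 carrying the sum. The 4 neuron markers summed to 9.70 to 13.5 CPM in GFP and 23.6 to 35.6 CPM in ID2, which SNAP25 (8.404 and 27.8 CPM on average) carried, while RBFOX3 was at or near 0. The part of these markers in the results was not tested. In bulk RNA, fewer cells with a transcript and less transcript per cell cannot be told apart. The ID2 replicate 3 stood apart from replicates 1 and 2. The chi-square of its counts per gene against theirs was 12.6 and 13.2, beside 2.39 to 6.05 in the other pairs of replicates. For the metallothioneins chosen above, SLC30A1 and MTF1, results of ID2 are given with and without this library where that changes a call. For the other named genes, ID2 calls without this library are not given here.

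The proximal promoters of MT2A and MT1X are shown because they carry the sequence through which MTF1 acts, and that of SLC30A1 because it is the other common MTF1 target. The windows cover the 250 bases before the transcription start and were taken from RefSeq on GRCh38.p14, in which MT2A is at chr16:56608334-56608583 on the plus strand, MT1X at chr16:56682220-56682469 on the plus strand and SLC30A1 at chr1:211579162-211579411 on the minus strand. Capitals mark the metal response element cores, TGCACNC or TGCGCNC, on either strand.
MT2A: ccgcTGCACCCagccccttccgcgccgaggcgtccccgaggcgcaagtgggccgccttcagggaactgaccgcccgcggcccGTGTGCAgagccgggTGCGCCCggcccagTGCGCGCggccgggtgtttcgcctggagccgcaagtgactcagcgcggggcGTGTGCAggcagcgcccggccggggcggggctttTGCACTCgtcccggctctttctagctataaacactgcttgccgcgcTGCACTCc
MT1X: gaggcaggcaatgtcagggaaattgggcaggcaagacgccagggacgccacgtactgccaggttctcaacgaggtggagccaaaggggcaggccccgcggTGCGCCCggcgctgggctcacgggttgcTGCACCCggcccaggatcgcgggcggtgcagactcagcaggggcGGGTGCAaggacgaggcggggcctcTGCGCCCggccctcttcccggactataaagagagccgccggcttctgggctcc
SLC30A1: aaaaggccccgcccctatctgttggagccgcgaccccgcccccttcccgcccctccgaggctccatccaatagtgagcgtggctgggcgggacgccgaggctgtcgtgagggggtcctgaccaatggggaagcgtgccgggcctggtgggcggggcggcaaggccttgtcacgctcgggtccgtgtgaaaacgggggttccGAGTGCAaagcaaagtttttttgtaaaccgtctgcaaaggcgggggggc
MT2A held 5 TGCACNC and 2 TGCGCNC cores, MT1X held 2 of each, and SLC30A1 held 1 TGCACNC core. Among all 35116 RefSeq promoter windows of this length, 24.8% held at least 1 core. Of these windows, 11 (0.0313%) held as many cores as MT2A or more, and 130 (0.370%) as many as MT1X or more. MT2A and MT1X also each held a TATAAA box, which 10.7% of all windows had, and 2 GGGCGG boxes, which 42.6% had at least 1 of. In MT1X, 1 GGGCGG overlapped a core. SLC30A1 held 6 GGGCGG boxes, 2 of which overlapped each other. The E-box pattern CANNTG, which 61.8% of all windows held, occurred 2 times in MT2A and not at all in the windows of MT1X and SLC30A1. The window of MTF1, at chr1:37859593-37859842 on the minus strand, held no core, 1 GGGCGG and 1 CANNTG. Promoters of MT1E, MT1F, MT1G, MT1M and MT1L were not analysed here. A match describes the letters of the window and does not show that a factor binds there.

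The 7 metallothioneins lie in 1 cluster on chromosome 16 of GRCh37, the build of the deposited counts. MT2A runs from 56642496 to 56643409, MT1L from 56651475 to 56652592, MT1E from 56659387 to 56661024, MT1M from 56666571 to 56667893, MT1F from 56691643 to 56694610, and MT1X from 56716382 to 56718108, all on the plus strand. MT1G runs from 56700642 to 56701977 on the minus strand. The starts span 73.89 kb from MT2A to MT1X. SLC30A1 (211744910 to 211752503) and MTF1 (38275246 to 38325264) both lie on the minus strand of chromosome 1. MTF1 overlaps a gene on the other strand, and whether counting used the strand is not given in the sources used here. The members are related in sequence and share stretches with each other or with further family genes and pseudogenes. Windows of 50 bases were taken from the last 300 bases of the main transcript, where this 3′ kit reads. For MT1L all 186 bases of its annotated transcript were used, against transcripts of 398 to 704 bases in the other members. Whether reads of MT1L fall within those 186 bases was not tested. The share of windows that also occurred in another gene's transcripts was 15.5% in MT2A, 25.5% in MT1X, 11.95% in MT1E and 9.16% in MT1F. It was 28.7% in MT1G, 17.5% in MT1M and 11.7% in MT1L. MT1X and MT1L each overlap another annotated gene on the same strand, and these overlapping genes were left out of the search. The remaining genes that share windows include pseudogenes outside the 7 members, and for MT1L the pseudogene MT1P3 is the only one. How reads from such windows were assigned is not given in the sources used here, so counts that rest on them are uncertain.

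Levels are raw counts in CPM. Each fragment of a 3′ library stands for the end of a transcript, so these counts do not scale with transcript length. MT2A was the most abundant member in every library, at 2664 ± 124 CPM in GFP (SD, n = 3), followed by MT1E at 806 ± 37.3 CPM. In GFP, MT1L (45.5 ± 4.11 CPM), MT1M (39.1 ± 0.50 CPM), MT1X (36.0 ± 4.03 CPM) and MT1F (29.6 ± 2.07 CPM) came next. The GFP range of MT1X overlapped those of MT1M and of MT1F. Within every GFP library MT1X stood above MT1F, while it stood above MT1M in GFP replicate 3 only. This order was not tested. MT1G was at 3.28 ± 0.30 CPM, with 22 to 52 counts in any library.

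**Figure D1:**
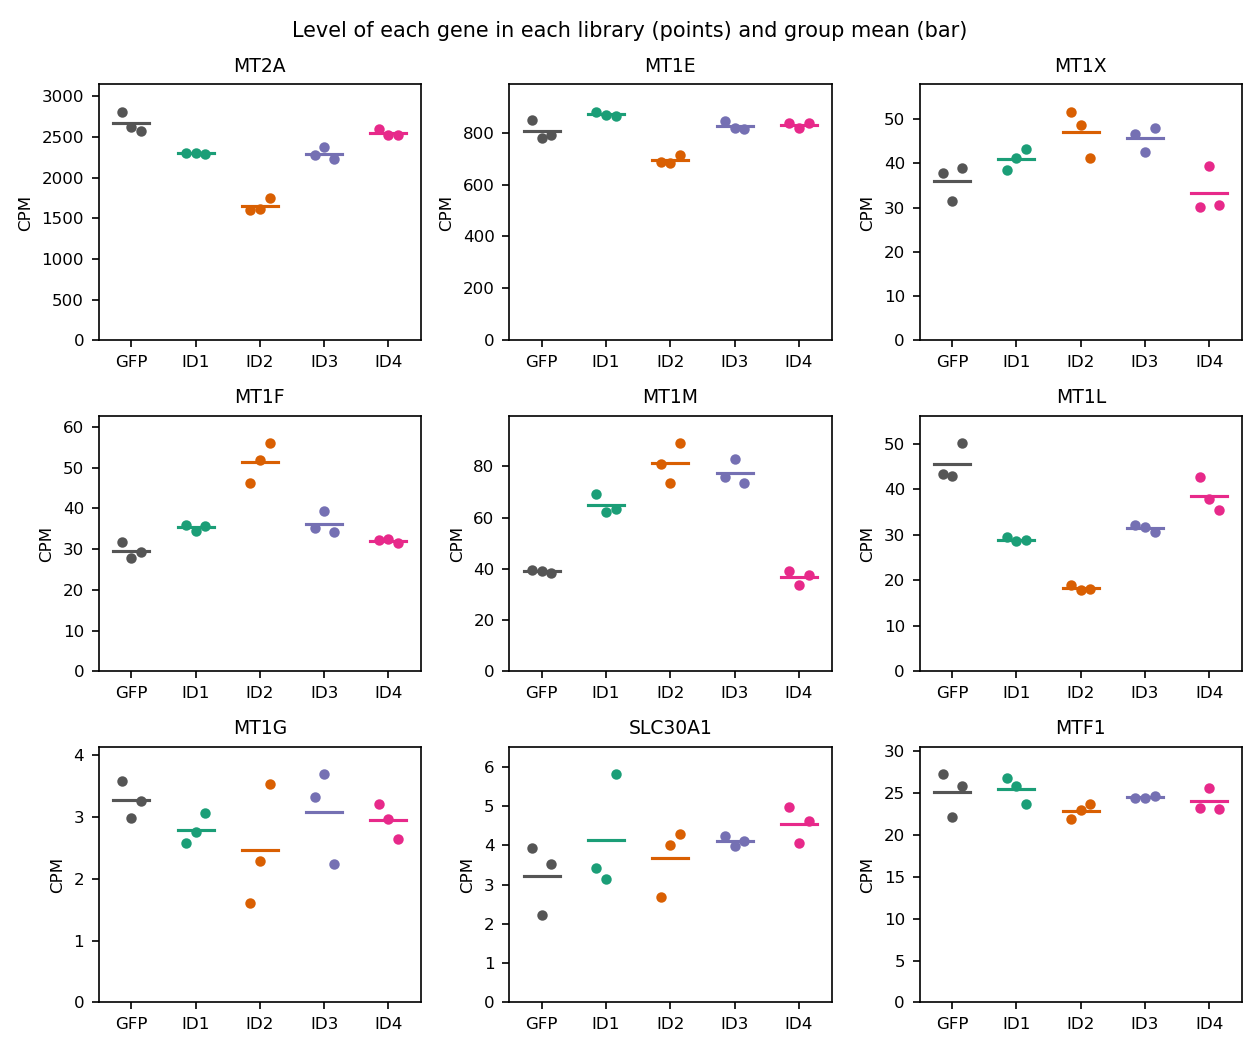
Level of each of the 9 genes in CPM (vertical axis, from 0) in each library (points), by group along the horizontal axis; the bars are the means of 3 libraries. MT2A and MT1L are lowest in ID2, MT1M is higher in ID1, ID2 and ID3 than in GFP and ID4, and the MT1G and MTF1 points of GFP overlap those of each ID group.

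Of the 9 members, 4 changed in ID1 against GFP (2 higher, 2 lower), 6 in ID2 (3 higher, 3 lower), 5 in ID3 (3 higher, 2 lower) and 1 in ID4 (lower). Calls are those of the quasi-likelihood test of edgeR, adjusted by Benjamini-Hochberg over 12870 genes, at 0.05. Among all tested genes, 22.1% passed in ID1 (12.4% higher, 9.73% lower), 35.1% in ID2 (18.5% higher, 16.7% lower), 28.6% in ID3 (15.1% higher, 13.5% lower) and 21.6% in ID4 (12.1% higher, 9.51% lower). The median log2 fold change of the 7 metallothioneins was 0.09 in ID1, -0.20 in ID2, 0.02 in ID3 and -0.08 in ID4, beside 0.00 over all tested genes in each comparison. In ID1, ID2 and ID3 the family did not move in 1 direction: MT1L and MT2A fell and MT1M and MT1F rose in all of them, and MT1X rose in ID2 and ID3. The 4 comparisons share the GFP libraries, so a direction common to them is not 4 independent results.

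MT2A, the main zinc-binding isoform, was lower in the ID1, ID2 and ID3 libraries. It was at 2805, 2617 and 2571 CPM in GFP, 2297, 2304 and 2292 CPM in ID1, 1607, 1611 and 1744 CPM in ID2, 2273, 2369 and 2232 CPM in ID3, and 2596, 2522 and 2525 CPM in ID4. All libraries of ID1, ID2 and ID3 lay below all GFP libraries, those of ID2 below every other library, and those of ID4 overlapped GFP. The log2 fold change was -0.23 (standard error 0.05, edgeR adjusted p = 0.000771) in ID1, -0.67 (standard error 0.05, edgeR adjusted p = 1.56e-10) in ID2 and -0.24 (standard error 0.05, edgeR adjusted p = 0.000425) in ID3. In ID4 it was -0.07 (edgeR adjusted p = 0.339). Without ID2 replicate 3 the ID2 change was -0.72. As ratios of mean CPM, MT2A was 13.8% lower in ID1 and 37.9% lower in ID2.

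MT1L, the transcribed pseudogene next to MT2A, moved in the same direction and farther. Its levels were 43.4, 42.8 and 50.2 CPM in GFP, 29.4, 28.6 and 28.9 CPM in ID1, 19.02, 17.9 and 18.2 CPM in ID2, 32.2, 31.7 and 30.7 CPM in ID3, and 42.6, 37.8 and 35.5 CPM in ID4. No library of an ID group reached the lowest GFP library, and the 3 ID2 libraries were the lowest of all. It fell by 0.67 on the log2 scale in ID1 (standard error 0.08, edgeR adjusted p = 2.34e-06), by 1.29 in ID2 (standard error 0.08, edgeR adjusted p = 8.1e-11) and by 0.55 in ID3 (standard error 0.08, edgeR adjusted p = 2.34e-05). The change in ID4, -0.24 (standard error 0.08, edgeR adjusted p = 0.0388), was the only call among the members there. It was lost without GFP replicate 3 (-0.16, edgeR adjusted p = 0.201), ID4 replicate 2 (-0.22, edgeR adjusted p = 0.116) or ID4 replicate 3 (-0.18, edgeR adjusted p = 0.182) and under 4 other settings. Mean MT1L CPM in ID2 was 59.6% below that in GFP.

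MT1M, a coding metallothionein, rose most among the members. It was at 39.6, 39.0 and 38.6 CPM in GFP, 69.4, 62.4 and 63.3 CPM in ID1, 80.8, 73.6 and 89.2 CPM in ID2, 76.0, 83.1 and 73.4 CPM in ID3, and 39.3, 33.9 and 37.5 CPM in ID4. Every ID1, ID2 and ID3 library stood above every GFP and ID4 library. The log2 fold change was 0.72 in ID1 (standard error 0.08, edgeR adjusted p = 6.43e-07), 1.07 in ID2 (standard error 0.08, edgeR adjusted p = 5.94e-10) and 0.97 in ID3 (standard error 0.08, edgeR adjusted p = 5.2e-09). In ID4 it was -0.08 (edgeR adjusted p = 0.552). Mean CPM was 2.08 times that of GFP in ID2 and 1.66 times in ID1.

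MT1F, another coding member, rose in ID1, ID2 and ID3, and most in ID2. Its levels were 31.8, 27.8 and 29.2 CPM in GFP, 35.9, 34.5 and 35.7 CPM in ID1, 46.3, 51.9 and 56.0 CPM in ID2, 35.1, 39.3 and 34.1 CPM in ID3, and 32.2, 32.4 and 31.5 CPM in ID4. The log2 fold change was 0.81 in ID2 (standard error 0.08, edgeR adjusted p = 6.33e-08), 0.24 in ID1 (standard error 0.08, edgeR adjusted p = 0.0401) and 0.27 in ID3 (standard error 0.08, edgeR adjusted p = 0.0187). The ID2 libraries stood above all others, and those of ID4 overlapped GFP, with a log2 fold change of 0.11 (edgeR adjusted p = 0.405). The ID1 call was lost when any library of the 2 groups except GFP replicate 1 was left out (0.20 to 0.26, edgeR adjusted p 0.0687 to 0.157) and under 3 other settings, among them the replicate block (edgeR adjusted p = 0.0571). The ID3 call was lost without GFP replicate 2 or 3 and without ID3 replicate 2 (edgeR adjusted p up to 0.12).

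MT1X, the last metallothionein of the cluster, rose in ID2 and ID3. It was at 37.8, 31.4 and 38.8 CPM in GFP, 38.6, 41.1 and 43.1 CPM in ID1, 51.6, 48.6 and 41.2 CPM in ID2, 46.7, 42.5 and 47.9 CPM in ID3, and 30.2, 39.3 and 30.6 CPM in ID4. The libraries of ID2 and ID3 lay above those of GFP, whereas those of ID1 and ID4 overlapped them. The log2 fold change was 0.40 in ID2 (standard error 0.10, edgeR adjusted p = 0.00302) and 0.32 in ID3 (standard error 0.10, edgeR adjusted p = 0.0188), the latter lost without GFP replicate 2 or ID3 replicate 1 or 3 (edgeR adjusted p up to 0.117). In ID1 it was 0.17 (edgeR adjusted p = 0.269) and in ID4 -0.12 (edgeR adjusted p = 0.474). The promoters of MT2A and MT1X shown above both carry several metal response element cores. In ID2 and ID3, MT2A fell and MT1X rose, with the ID3 call of MT1X lost in the fits named above. The part of these cores in the changes was not tested.

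MT1E, the second most abundant member, was called in ID2, where it fell, and in no other group. Its levels were 849, 780 and 791 CPM in GFP, 879, 867 and 864 CPM in ID1, 687, 684 and 714 CPM in ID2, 846, 819 and 816 CPM in ID3, and 838, 817 and 838 CPM in ID4. The log2 fold change was -0.20 in ID2 (standard error 0.04, edgeR adjusted p = 0.000943) and 0.09 in ID1 (edgeR adjusted p = 0.125), where all 3 libraries lay above GFP. In ID3 and ID4 the libraries overlapped those of GFP, at 0.02 and 0.04.

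MT1G, a member with few counts, did not pass in any group, with log2 fold changes of -0.25, -0.39, -0.11 and -0.16 in ID1 to ID4 (edgeR adjusted p 0.242 to 0.788). Its CPM values were 3.59, 2.98 and 3.26 in GFP and 1.60, 2.28 and 3.53 in ID2, so the highest ID2 library lay inside the range of GFP. That library is ID2 replicate 3, and without it the log2 fold change was -0.74 (edgeR adjusted p = 0.0281). With all libraries, MT1G had an unadjusted p under 0.05 in 0 of the 4 comparisons.

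Neither SLC30A1 nor MTF1 passed by edgeR, and 0 of 2 had an unadjusted p under 0.05 in any of the 4 comparisons with GFP. These are transcript levels and do not measure zinc. DESeq2 and limma gave no call for SLC30A1 or MTF1 either. SLC30A1, the zinc exporter induced by MTF1, was at 3.94, 2.24 and 3.51 CPM in GFP and 4.98, 4.06 and 4.62 CPM in ID4, which did not overlap. The ID3 libraries, at 4.23, 3.98 and 4.11 CPM, did not overlap GFP either, and those of ID1 and ID2 did. The log2 fold change in ID4 was 0.49 (95% interval -0.02 to 0.99, edgeR adjusted p = 0.169), and it was 0.32, 0.19 and 0.32 in ID1, ID2 and ID3 (edgeR adjusted p 0.365 to 0.586). Leaving out each library moved these values to between 0.00021 and 0.49 in ID1 (lowest without ID1 replicate 3), -0.0041 and 0.37 in ID2, 0.12 and 0.48 in ID3, and 0.29 and 0.65 in ID4 (lowest in each of these 3 without GFP replicate 2). Its 27 to 78 counts per library limit what could be detected. MTF1, the sensor itself, lay between 21.9 and 27.3 CPM in all 15 libraries, with log2 fold changes of 0.01, -0.12, -0.06 and -0.07 (edgeR adjusted p 0.302 to 0.976).

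**Figure D2:**
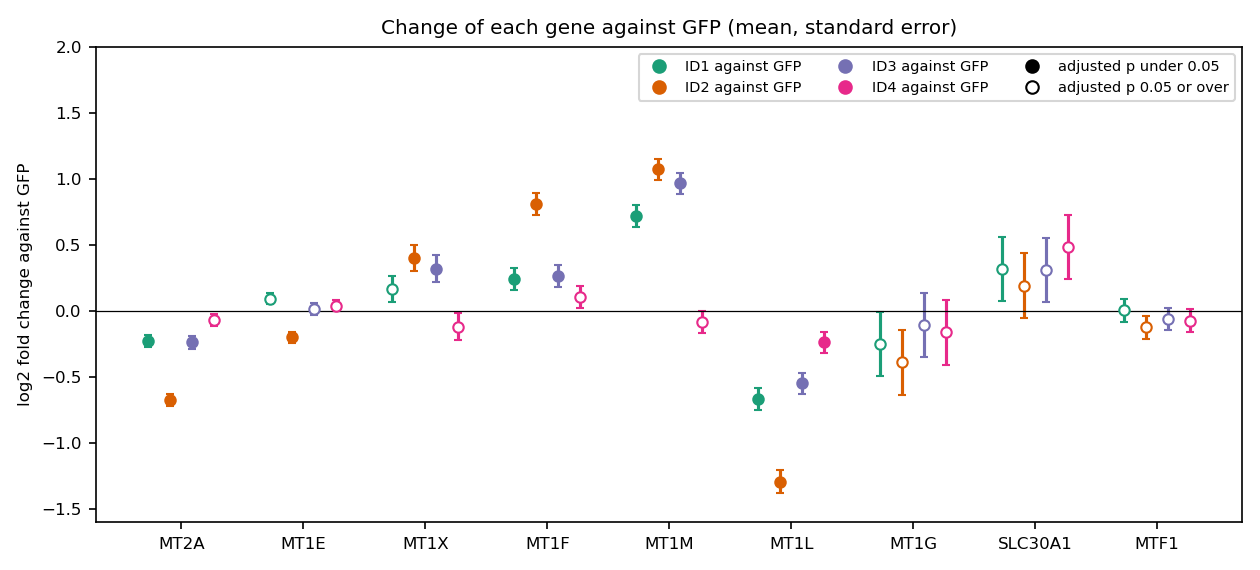
Log2 fold change against GFP (vertical axis) of each gene (horizontal axis) in the 4 ID groups; points are edgeR estimates, filled where the adjusted p was under 0.05, and bars their standard errors. MT1M stands at 0.72, 1.07 and 0.97 in ID1, ID2 and ID3 and MT1L at -0.67, -1.29 and -0.55, while most values in ID4 lie near 0.

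The ID groups were also compared with each other. The GFP libraries do not enter these differences, although they enter the shared normalization and estimate of spread. In ID1 against ID2, 5 of 9 members passed (3 higher and 2 lower in ID1), beside 18.6% of all tested genes (8.9% higher, 9.74% lower). In ID2 against ID3, 4 of 9 passed (1 higher and 3 lower in ID2), beside 15% of all (7.58% higher, 7.46% lower). In ID2 against ID4, 6 of 9 passed (3 higher and 3 lower in ID2), beside 18.6% of all (9.53% higher, 9.07% lower). MT2A was lower in ID2 than in ID1 (log2 difference ID1 minus ID2 0.44, edgeR adjusted p = 5.77e-07), ID3 (ID2 minus ID3 -0.43, edgeR adjusted p = 9.78e-07) and ID4 (ID2 minus ID4 -0.60, edgeR adjusted p = 3.1e-09). MT1E was lower in ID2 than in the other ID groups too, by log2 differences of 0.29 (ID1 minus ID2), -0.21 (ID2 minus ID3) and -0.24 (ID2 minus ID4), with edgeR adjusted p of 4.61e-05, 0.00151 and 0.000386. MT1L was likewise lower (0.63, -0.74 and -1.06, edgeR adjusted p at most 2.65e-05), whereas MT1F was higher (-0.57, 0.54 and 0.70, edgeR adjusted p at most 5.36e-05). MT1M was higher in ID2 than in ID1 (ID1 minus ID2 -0.35, edgeR adjusted p = 0.00222) and ID4 (ID2 minus ID4 1.15, edgeR adjusted p = 7.47e-10), and MT1X was higher in ID2 than in ID4 (0.52, edgeR adjusted p = 0.000864). MT1X did not pass in ID1 against ID2 (-0.24, edgeR adjusted p = 0.102) but did without ID2 replicate 3 (-0.32, edgeR adjusted p = 0.0199).

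Between ID1 and ID3, MT1M alone passed of 9, lower in ID1, beside 9.18% of all tested genes (4.47% higher, 4.72% lower). It was at -0.25 for ID1 minus ID3 (edgeR adjusted p = 0.0447), and this call was lost without ID1 replicate 2 or 3 or ID3 replicate 1 or 2 (-0.27 to -0.19, edgeR adjusted p 0.078 to 0.203). The difference in MT2A was 0.01 (edgeR adjusted p = 0.938). In ID1 against ID4, 3 of 9 passed (1 higher and 2 lower in ID1), beside 4.87% of all (2.31% higher, 2.56% lower). They were MT1M at 0.80 (edgeR adjusted p = 8.94e-07), MT1L at -0.43 (edgeR adjusted p = 0.00219) and MT2A at -0.16 (edgeR adjusted p = 0.0421). The call of MT2A was lost in all 6 fits that left out a library of either group, with the replicate block (edgeR adjusted p = 0.0703), without TMM (edgeR adjusted p = 0.0513) and with limma on log2 CPM (limma adjusted p = 0.0537). MT1X, at 0.28 (edgeR adjusted p = 0.126), was called without ID4 replicate 2 (0.41, edgeR adjusted p = 0.0287), with every gene of 1 count or more tested (edgeR adjusted p = 0.0391) and with only the 2 groups fitted (edgeR adjusted p = 0.049). In ID3 against ID4, 4 of 9 passed (2 higher and 2 lower in ID3), beside 11.3% of all (5.49% higher, 5.77% lower), with MT1M at 1.05 (edgeR adjusted p = 1.03e-08), MT1X at 0.44 (edgeR adjusted p = 0.00688), MT1L at -0.31 (edgeR adjusted p = 0.0161) and MT2A at -0.17 (edgeR adjusted p = 0.0178). Without ID4 replicate 1, MT1X (0.38), MT1L (-0.23) and MT2A (-0.15) lost their calls (edgeR adjusted p = 0.0518, 0.123 and 0.0877). Without ID3 replicate 1, MT1L (-0.31) and MT2A (-0.15) did (edgeR adjusted p = 0.0511 and 0.0706), and without ID3 replicate 3 MT2A did (edgeR adjusted p = 0.0639). In ID2 against ID3, MT1M did not differ beyond the spread, at 0.10 (edgeR adjusted p = 0.397).

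Summed over the 7 metallothioneins, the level was 3624 ± 161 CPM in GFP, 3341 ± 11.1 CPM in ID1, 2549 ± 101 CPM in ID2, 3312 ± 76.0 CPM in ID3 and 3522 ± 52.2 CPM in ID4 (SD, n = 3 each), or 0.249% to 0.381% of all counts in a library. The sum weighs MT2A most, and reads placed with the wrong copy leave it unaltered as long as they stay within the 7 genes. The log2 ratio of group means to GFP was -0.12, -0.51, -0.13 and -0.04 for ID1 to ID4. Without MT2A it was 0.12, -0.10, 0.09 and 0.02, so the sign differed in ID1, ID3 and ID4. The ID4 libraries overlapped GFP in both sums, and those of ID3 overlapped GFP in the sum without MT2A. MT1E, at 806 CPM in GFP, carried most of the sum without MT2A, which was 960 CPM there. MT2A made up 73.5 ± 0.47% of the sum in GFP, 68.8 ± 0.23% in ID1, 64.9 ± 0.48% in ID2, 69.2 ± 0.68% in ID3 and 72.3 ± 0.18% in ID4, and MT1E between 22.2% and 27.3% as group means. The 5 minor members together made up 4.24 ± 0.27% in GFP and 7.87 ± 0.11% in ID2. The ratio of MT1M to MT1L counts, which total depth does not alter, was 0.86 ± 0.08 in GFP, 2.24 ± 0.10 in ID1, 4.42 ± 0.42 in ID2, 2.46 ± 0.14 in ID3 and 0.96 ± 0.08 in ID4. MT1M rose most and MT1L fell most of the members in ID1, ID2 and ID3, so this ratio restates their changes. These are descriptions and carry no test.

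**Figure D3:**
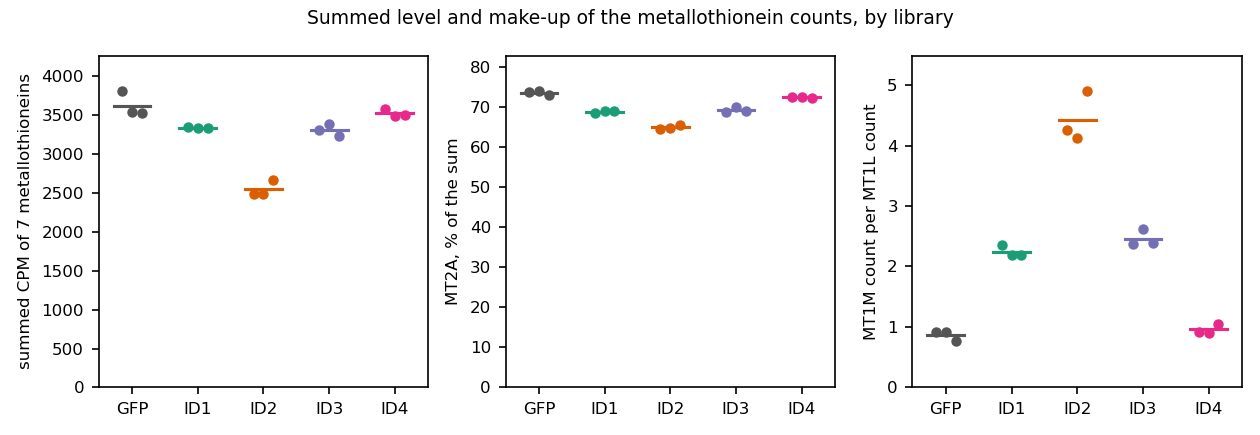
Left, summed CPM of the 7 metallothioneins; middle, MT2A as percent of that sum; right, MT1M counts per MT1L count, each from 0, by library (points) with group means (bars). ID2 is lowest in the first and the middle panel and highest in the right panel, where its libraries lie between 4.12 and 4.90 and those of GFP between 0.77 and 0.91.

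Other metallothioneins were nearly silent. Of 12 further family members listed, 9 were in the table and 1, MT1JP, annotated as a long non-coding RNA, was abundant enough to be tested. MT1JP lies between MT1M and MT1F, from 56669651 to 56670998 on chromosome 16. It was at 8.10, 6.96 and 7.62 CPM in GFP, 12.5, 10.5 and 10.8 CPM in ID1, 10.6 to 11.4 CPM in ID2, 12.4, 11.1 and 10.7 CPM in ID3, and 6.36, 8.30 and 7.34 CPM in ID4. It rose in ID1, ID2 and ID3, by log2 fold changes of 0.56, 0.56 and 0.57 (edgeR adjusted p = 0.0021, 0.00127 and 0.00133), and stood at -0.05 in ID4 (edgeR adjusted p = 0.826). Of its 3′ windows, 23.5% are shared with transcripts of other genes, among them MT1E, MT1F, MT1G and MT1M. Its counts are therefore not independent of theirs where reads fall in such windows. MT1A had 3 to 9 counts per library, MT1H 4 to 13 and MT1HL1 2 to 14. MT3, the brain form, had a single count in a single ID1 library, and MT4 had none in any library.

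The genes around the cluster moved as well in ID2. Of 24 genes listed on 16q, 16 were tested. In ID2 against GFP, 11 fell and 1 rose (16.7% of all tested genes fell), with a median log2 fold change of -0.27. In ID1 against GFP, 1 rose and 3 fell (median -0.01), in ID3 3 rose and 2 fell (median 0.04), and in ID4 3 rose and 1 fell (median 0.07). These 4, 5 and 4 of 16 are near the shares of all tested genes that passed, 22.1%, 28.6% and 21.6%. Among the genes that fell in ID2 were CPNE2 (-0.86, edgeR adjusted p = 1.89e-06) and NUDT21 (-0.39, edgeR adjusted p = 0.00139), which encodes a factor of mRNA 3′-end processing. NUDT21 was at 79.7 to 113 CPM in ID2 and 122 to 138 CPM in GFP. Its lowest ID2 library was replicate 3, which stood apart from the others. Calls of the neighbours without that library are not given here. OGFOD1 fell in ID1, ID2 and ID3 (-0.20, -0.39 and -0.29), and HERPUD1 in ID1 and ID2 (-0.29 in both). NLRC5 rose in ID3 and ID4 (0.40 and 0.35). MMP2, a matrix metalloproteinase, was higher in every ID group against GFP, at 0.22, 0.47, 0.41 and 0.19. In ID2 against ID4, 10 of the 16 were lower and 1 higher (median -0.29), beside 9.07% lower and 9.53% higher among all tested genes. In ID1 against ID2, 7 were higher and 1 lower in ID1, beside 8.9% and 9.74% of all. In ID2 against ID3, 0 were higher and 7 lower in ID2, beside 7.58% and 7.46% of all. In ID2 against GFP, MT2A, MT1L and MT1E were lower and MT1M, MT1F, MT1X and MT1JP, which lie in the same region, were higher. The part of the neighbours' changes in any of these was not tested.

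**Figure D4:**
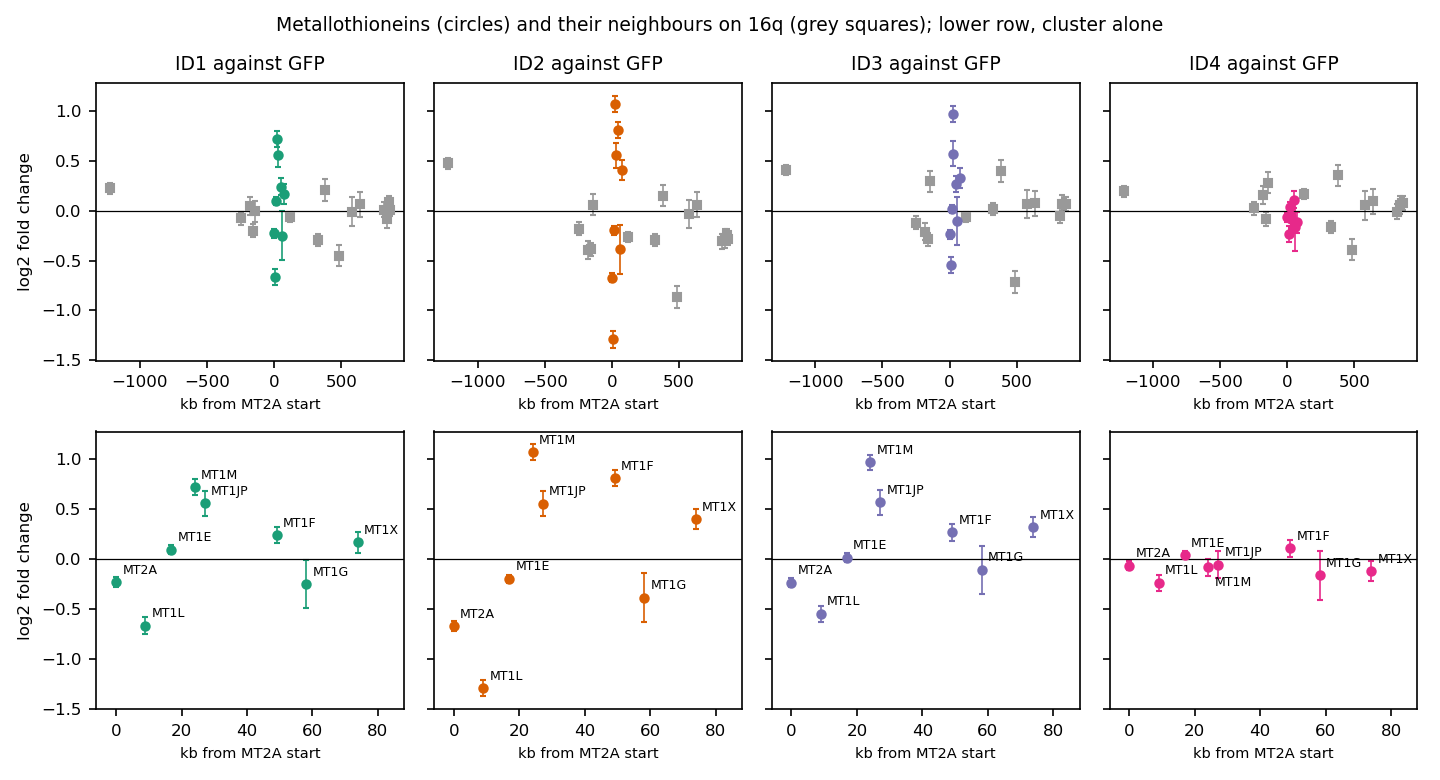
Log2 fold change against GFP (vertical axis, bars are standard errors) by distance in kb from the start of MT2A for the tested metallothioneins (circles) and tested neighbours on 16q (squares, without FAM192A, which matched no position), 1 column per ID group; the lower row shows the cluster alone. In ID2 most neighbours lie below 0 while metallothioneins range from -1.29 (MT1L) to 1.07 (MT1M).

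Zinc transporters were examined as the other genes that set cellular zinc. Of 9 SLC30A exporters listed beside SLC30A1, 5 were tested. With edgeR, 0 passed in ID1, ID2 or ID4, where 0 also had an unadjusted p under 0.05, and SLC30A9 fell in ID3 (-0.20, edgeR adjusted p = 0.0311). Their medians were 0.11, 0.13, 0.12 and 0.07. Of 14 SLC39A importers, 12 were tested, and 3 rose and 2 fell in ID1, 4 rose and 1 fell in ID2, and 3 rose and 1 fell in both ID3 and ID4 (medians 0.06, 0.16, 0.08 and 0.03). Among all tested genes, 22.1%, 35.1%, 28.6% and 21.6% passed. The 5 of 12 in ID2 and 4 of 12 in ID3 are near these shares, and those counts say nothing particular to importers. The 5 of 12 in ID1 and 4 of 12 in ID4 lie above their shares, on a list of 12 genes. SLC39A4, the intestinal zinc importer, was lower in all ID groups, at 8.31, 5.05 and 7.20 CPM in GFP against 3.60 to 5.30 CPM elsewhere, with log2 fold changes of -0.66, -0.86, -0.66 and -0.59 (edgeR adjusted p at most 0.0216). The GFP library at 5.05 CPM lay inside the range of ID4. SLC39A5 was higher in all ID groups (0.29, 0.31, 0.51 and 0.35, edgeR adjusted p at most 0.0214). SLC39A14, which takes up zinc and iron, rose in ID1, ID2 and ID3 (0.36, 0.21 and 0.37) and stood at 0.11 in ID4 (edgeR adjusted p = 0.182). SLC39A11 rose in ID1, ID2 and ID4 (0.44, 0.48 and 0.35), and SLC39A9 fell in ID1 (-0.17, edgeR adjusted p = 0.0385).

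**Figure D5:**
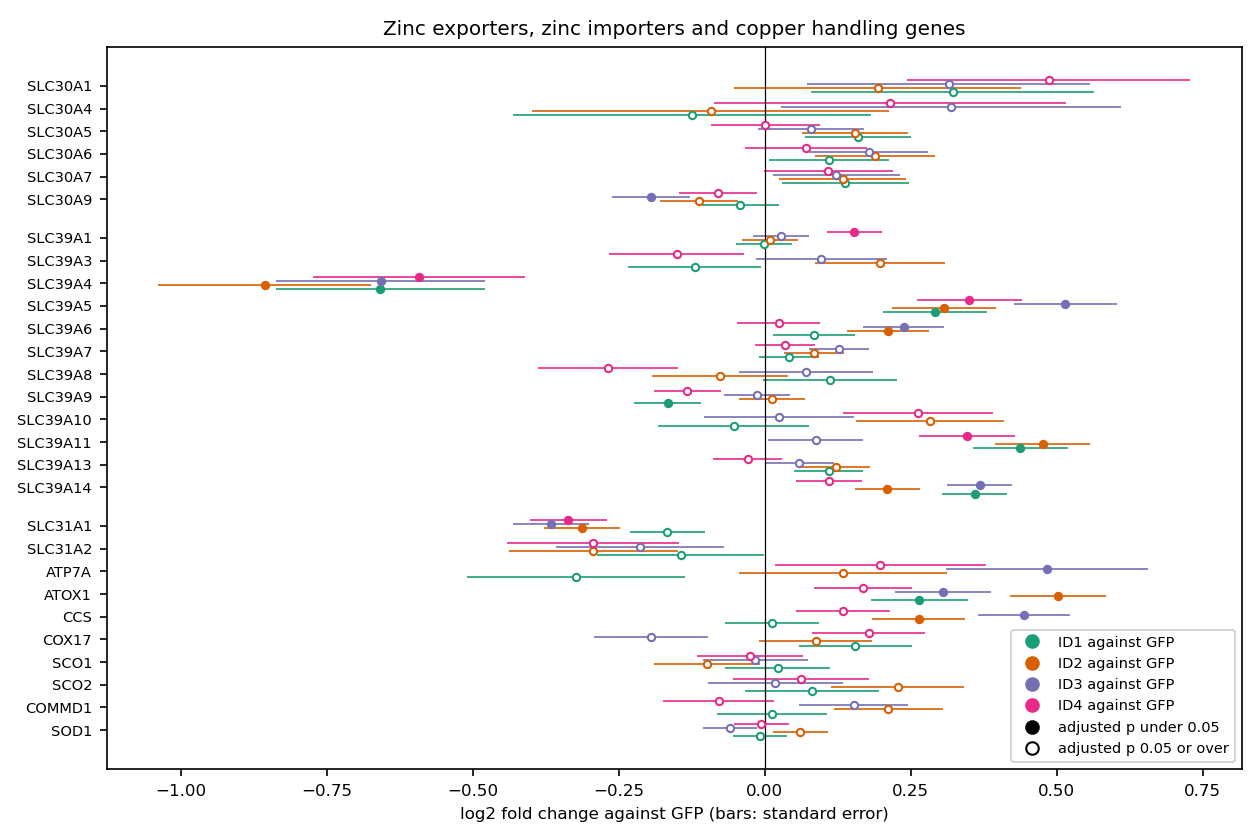
Log2 fold change against GFP (horizontal axis, bars are standard errors) of the tested zinc exporters (SLC30A), zinc importers (SLC39A) and copper handling genes (vertical axis) in the 4 ID groups; filled points had an adjusted p under 0.05. SLC39A4 is lowest in each group, at -0.66, -0.86, -0.66 and -0.59, and SLC30A9 in ID3 is the only filled exporter point.

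Metallothioneins also bind copper. Of 11 copper handling genes, 10 were tested, and 1 rose in ID1, 2 rose and 1 fell in ID2, 3 rose and 1 fell in ID3, and 1 fell in ID4 (medians 0.01, 0.11, 0.00 and 0.03). Among all tested genes 22.1%, 35.1%, 28.6% and 21.6% passed, so the copper list stood near or below this share in ID1, ID2 and ID4. ATOX1, a copper chaperone, rose in ID1, ID2 and ID3 (0.26, 0.50 and 0.30, edgeR adjusted p at most 0.0237). CCS, the copper chaperone of superoxide dismutase, rose in ID2 and ID3 (0.26 and 0.44). ATP7A, a copper-exporting ATPase, rose in ID3 (0.48, edgeR adjusted p = 0.04). SLC31A1, the copper importer, fell in ID2, ID3 and ID4 (-0.31, -0.37 and -0.34, edgeR adjusted p at most 0.000667). Of 10 genes listed for the glucocorticoid receptor and its common targets, 9 were tested, and 2 rose and 2 fell in ID1, ID2 and ID4 and 3 rose and 2 fell in ID3 (medians -0.04, 0.14, 0.04 and 0.11). The same shares of all genes apply, and 4 of 9 in ID2 is near its 35.1%. The counts in ID1, ID3 and ID4 lie above their 22.1%, 28.6% and 21.6%, on a list of 9 genes. TSC22D3 (0.40, 0.73, 0.48 and 0.22) and DUSP1 (0.33, 0.40, 0.68 and 0.32) rose in all ID groups, while ERRFI1 (-1.23, -1.85, -1.33 and -1.37) and CEBPD (-0.55, -0.55, -0.39 and -0.67) fell in all (edgeR adjusted p at most 0.0462). KLF9 rose in ID3 (0.59, edgeR adjusted p = 0.0274). The receptor gene, NR3C1, was not called in any group (edgeR adjusted p 0.135 to 0.902).

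Across the 15 libraries, the genes whose log2 CPM was most like the mean of the 7 metallothioneins were HTT (Pearson's r = 0.866), ZNHIT2 (0.853), DHX30 (0.850), ARFRP1 (0.850) and NPLOC4 (0.847), out of 12862 genes compared. The mean weighs all 7 members equally, MT1G with its few counts included, although some members rose and others fell. It therefore need not follow MT2A or any other single member. The 5 genes were picked as the highest r of all genes compared. The points also share libraries, depth and the 5 groups, so these are descriptions.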

How the data were processed

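QuantSeq 3′ libraries were processed against hg19 (GRCh37). The submitters' processing notes name Bowtie2 and BWA, and the counting tool is not given in the sources used here. The authors deposited for each gene a raw count and a between-library normalized log2 value. Counts were fitted with edgeR 4.0.16 in R 4.3.3 (TMM factors 0.978 to 1.03, quasi-likelihood test, 1 mean per group over 15 libraries). P-values were adjusted by Benjamini-Hochberg over the 12870 genes at or above a mean deposited log2 value of 3.22, the upper 50% of the table, and all 9 members passed this filter. The threshold was 0.05. The fitting scripts were tested on simulated data. Alternatives were other filters, no TMM, limma 3.58.1, DESeq2 1.42.0, only 2 groups, a replicate block, a fold limit and leaving out each library. Named genes are the members, the listed genes with the largest called changes against GFP (up to 2 each way), the 5 most alike, and some chosen after their values were seen: MT1A, MT1H, MT1HL1, MT3, MT4, NR3C1, and list genes given outside the comparison in which the rule named them. Members and lists were chosen with earlier results of these data known. Positions came from GENCODE on GRCh37. One marker gene of the line is not reported here.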

Additional observations from a re-analysis of the deposited data

How the results depend on the processing

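The counts of the 9 genes called against GFP were within 1.5 times the reported count for ID1, ID2 and ID3 under every alternative that kept all libraries except a required log2 fold change over 1, which left 0 in ID1, 2 in ID2, 0 in ID3 and 0 in ID4. For ID4 the single call, MT1L, was lost (0 members) with every gene of 1 count or more tested, with DESeq2, with only the 2 groups fitted and with the replicate block. Between ID groups, the fold limit left 0 in ID1 against ID2, 0 in ID1 against ID3, 0 in ID1 against ID4, 0 in ID2 against ID3, 2 in ID2 against ID4 and 1 in ID3 against ID4, and MT1M in ID1 against ID3 was lost (0 members) with limma on log2 CPM and with the replicate block. Leaving out each library gave 3 to 4 members in ID1, 6 to 7 in ID2, 3 to 5 in ID3 (3 without GFP replicate 2) and 0 to 1 in ID4 (0 without GFP replicate 3, ID4 replicate 2 or ID4 replicate 3). Between ID groups it gave 5 to 6 for ID1 against ID2, 0 to 1 for ID1 against ID3 (0 without ID1 replicate 2 or 3, or ID3 replicate 1 or 2), 2 to 3 for ID1 against ID4, 4 for ID2 against ID3, 6 for ID2 against ID4 and 1 to 4 for ID3 against ID4 (2 without ID3 replicate 1, 1 without ID4 replicate 1). The causes were not tested.

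The replicate numbers are not said to pair libraries, and same-numbered libraries correlated at -0.25 to 0.24, so the block is only an alternative. With the replicate block, MT1F in ID1 against GFP (edgeR adjusted p = 0.0571), MT1L in ID4 against GFP (0.0508), MT1M in ID1 against ID3 (0.0593) and MT2A in ID1 against ID4 (0.0703) lost their calls, and no other member's call changed.

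The log2 ratio of the summed level to GFP was -0.14 to -0.08 in ID1, -0.54 to -0.47 in ID2, -0.15 to -0.09 in ID3 and -0.06 to 0.00 in ID4 with each library left out, and without MT2A 0.12, -0.10, 0.089 and 0.022. Uncalled values near 0 turned direction. SLC30A1 in ID1 against ID3 gave -0.040 and -0.049 with limma on log2 CPM and on deposited log2 values, and -0.012 with the replicate block. Leaving out a library gave -0.073 to 0.061 for MTF1 in ID1 against GFP, -0.0041 to 0.37 for SLC30A1 in ID2 against GFP, -0.0055 to 0.045 for MT1E and -0.26 to 0.070 for MT1G in ID3 against GFP. It gave -0.092 to 0.49 for MT1G and -0.19 to 0.28 for SLC30A1 in ID1 against ID2. In ID1 against ID3 it gave -0.0100 to 0.040 for MT2A, -0.066 to 0.045 for MT1F, -0.32 to 0.011 for MT1G and -0.31 to 0.16 for SLC30A1. It gave -0.25 to 0.054 for SLC30A1 in ID2 against ID3, -0.58 to 0.0017 for MT1G in ID2 against ID4, and -0.10 to 0.24 for MT1G and -0.014 to 0.057 for MTF1 in ID3 against ID4.

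Over all tested genes, fitting only the 2 groups changed the calls from 627 to 1064 in ID1 against ID4 and from 1935 to 1073 in ID2 against ID3. Leaving out a library gave as few as 363 in ID1 against ID4, 634 of 1182 in ID1 against ID3 and 800 of 1450 in ID3 against ID4. Depth limits MT1G and SLC30A1, with 22 to 78 counts per library.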
